A study of Mus musculus with 6 samples.

Results

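The genes described here are 42 interferon-stimulated and Schlafen genes of the mouse, taken by symbol from a list. The list was chosen with earlier results of these data known. All 42 had an entry among the 23282 of the count files, and 41 of them were among the 10475 genes with enough counts to be tested. They were sorted by role into 7 classes: 4 regulators, 4 sensors of foreign RNA and DNA, 4 members of the ISG15 and ubiquitin system, 14 antiviral effectors, 7 other induced genes, 5 interferon-gamma-inducible GTPases and 4 Schlafens. The cells were regulatory T cells (Treg), a CD4 lineage that holds other immune cells in check; they were FACS-sorted from spleen and received no stimulus. The 3 IPMK conditional knockout (IPMK cKO) libraries and the 3 wild type libraries were all from the strain C57BL/6. The knockout removes inositol polyphosphate multikinase, a kinase of inositol phosphates and phosphoinositides, and the question was how the Treg transcriptome differs without it. The sources used here do not give the Cre driver, the deleted part of Ipmk, or the age and sex of the mice.

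Interferons bind receptors at the cell surface and act through JAK kinases on STAT transcription factors. Type I interferon signals through a complex with STAT2 and IRF9 that binds the interferon-stimulated response element (ISRE), and interferon gamma acts through the gamma-activated site (GAS). The genes induced include sensors of viral nucleic acid, effectors that block viral replication and regulators that feed back on the pathway, and Schlafens are a rodent-expanded family of which several members are active in lymphocytes and, like Slfn2, bear on T cell quiescence.

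The ISRE is the sequence feature by which these genes are known, and stretches from 8 genes are shown first because they bear on whether the label fits. Promoter windows of 250 bases before to 50 bases after the annotated start were read from RefSeq on the mouse build GRCm38.p6, and 32 of the 42 genes had one. The core of the ISRE was searched on both strands as GAAA, any 2 bases, and GAAA again. Each line below holds 30 bases 5′ to 3′ on the strand of the gene, with the bases of every match in capitals, so a match on the opposite strand reads TTTC, any 2 bases, TTTC. The stretches lie at chr4:156200871-156200900 (Isg15, minus strand), chr19:34583397-34583426 (Ifit3, plus), chr5:120907526-120907555 (Oas1a, minus), chr8:71537583-71537612 (Bst2, minus), chr3:142620594-142620623 (Gbp2, plus), chr11:48871431-48871460 (Irgm1, minus), chr11:83020839-83020868 (Slfn8, minus) and chr11:82951937-82951966 (Slfn5, plus).
Isg15: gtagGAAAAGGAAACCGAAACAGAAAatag
Ifit3: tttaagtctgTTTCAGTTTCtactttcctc
Oas1a: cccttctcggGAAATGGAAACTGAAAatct
Bst2: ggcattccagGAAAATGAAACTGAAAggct
Gbp2: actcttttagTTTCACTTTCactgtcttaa
Irgm1: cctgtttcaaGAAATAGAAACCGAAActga
Slfn8: atttgagcagTTTCGTTTTCcccaaaagca
Slfn5: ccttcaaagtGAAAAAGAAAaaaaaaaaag
In Isg15, which encodes the ubiquitin-like modifier, 3 matches overlapped and began 78, 72 and 66 bases before the start. In Oas1a, Bst2 and Irgm1 a pair of matches overlapped in the same way. The Slfn5 match ran into a stretch of A and lay 155 bases before the start, whereas the Slfn8 match lay 48 bases before the nearer annotated start. The same Slfn8 match also lay in the window of another annotated start, farther before it, and was counted once.

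A match to the ISRE core was present in 18 of the 32 genes with a window (56.2%), against 1079 of 27025 gene symbols in the whole promoter table (3.99%). The longer form, which adds CT at the end of the core, was present in 11 of the 32 (34.4%), against 0.303% of all symbols. By class the core was found in 5 of 5 interferon-gamma-inducible GTPases, 2 of 2 sensors with a window, 2 of 3 genes of the ISG15 and ubiquitin system and 6 of 11 antiviral effectors. It was found in 1 of 4 regulators (Stat2), 2 of 4 Schlafens (Slfn5 and Slfn8) and 0 of 3 other induced genes. The GAS motif TTCNNNGAA, which reads the same on both strands, was found in 9 of the 32 (28.1%), against 9.55% of all symbols, and Bst2, Gbp7, Igtp and Oas1a held both motifs. Of 27 ISRE matches, 16 lay within 100 bases before the start, in 11 genes, and 3 lay after it. A match is a description of the letters in this window and no evidence that a factor binds there.

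**Figure D1:**
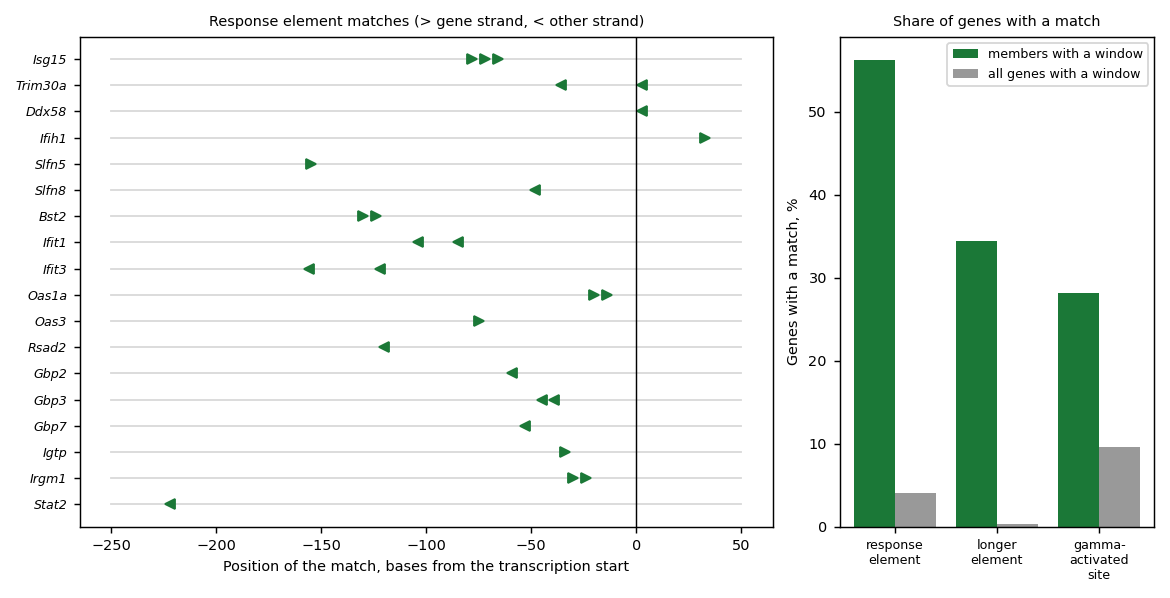
Left, positions of ISRE core matches in the promoter windows of the 18 genes that hold one, as the distance in bases from the annotated start, with right-pointing marks on the gene's strand and left-pointing marks on the other strand; 16 of the 27 marks lie within 100 bases before the start. Right, bars for the percentage of genes with a match among members with a window (green) and all gene symbols with a window (grey), for the ISRE core (56.2% and 3.99%), the longer ISRE (34.4% and 0.303%) and the GAS motif (28.1% and 9.55%).

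The labels call each library a biological replicate but name no animals, so a p-value here reflects the spread among these libraries, part of which may be technical. Depth was 8363324 to 8980395 counts per library in IPMK cKO and 7464546 to 8246993 in wild type, of which the 45S ribosomal RNA precursor Rn45s took 19.9% to 32.1% and 16.7% to 31.7%. Ipmk had 3, 21 and 0 counts in the IPMK cKO libraries, against 129, 77 and 99 in the wild type libraries, with no overlap between the groups. Its tags come from the 3′ end of the transcript, so with the deleted part unknown they describe transcript abundance and not the deletion. The summed level of T cell and Treg markers was 3505 to 3960 CPM in IPMK cKO and 3586 to 4289 CPM in wild type, where CPM is each gene's count relative to its library's TMM-normalized total. Foxp3, which defines Treg, had 85.1, 72 and 82.3 CPM in IPMK cKO, against 10.3, 80.6 and 29 CPM in wild type, where replicates 1 and 3 lay below every IPMK cKO library. Markers of B cells summed to 11.8 to 14.2 CPM in IPMK cKO and 10.8 to 26.2 CPM in wild type, and 3 of the 8 had no count in any library. IPMK cKO replicate 1 stood apart, being the highest library for 29.2% and the lowest for 29% of all genes tested. Estimates without it are given beside the main value for Slfn1, Irf7, Parp9, Ifi35, Ly6e and Isg20. They are not given for other genes in which it lay far from the rest of its group, such as Ifit2, Xaf1 and Irgm1.

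No member passed the test in IPMK cKO against wild type. By edgeR's quasi-likelihood test, adjusted over all 10475 genes tested, 0 of 41 members were called higher and 0 lower, and the same test called 0% of all genes in either direction. DESeq2 called 0 members, against 0.00707% of the 14139 genes it tested higher and 0.0212% lower. At an unadjusted edgeR p under 0.05, 2 members were higher, Slfn1 and Irf7, and 0 were lower, against 1.37% of all genes higher and 1.19% lower. The adjusted edgeR p of every member was 0.9999. Ipmk itself, with a log2 fold change of -3.51 (SE 1.75), was not called either. Its unadjusted edgeR p was 0.0705 and its DESeq2 adjusted p was 0.875. The lack of a call for a member is thus no evidence that its level was unchanged. With bulk RNA, more cells that carry a transcript and more transcript per cell cannot be told apart.

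The estimates of the members lay above 0 more often than below it. Of the 41 tested, 28 (68.3%) had a log2 fold change above 0 and 13 below, against 51.8% above 0 over all genes tested. The median was 0.24, against 0.03 over all genes tested. When TMM was left out, 22 members lay above 0 and 19 below. The members' median was then 0.054, against -0.17 over all genes tested. In 5 members, Slfn1, Irf7, Ifit3, Samhd1 and Parp14, every IPMK cKO library lay above every wild type library, which is 12.2% of the members against 4.74% of all genes tested. Without TMM scaling only Slfn1 and Irf7 of these 5 stayed apart, Parp9 joined them and Ifit2 was wholly lower, with 2.69% of all genes tested wholly higher and 7.62% wholly lower. The reverse, with all IPMK cKO libraries the lower ones, held for 0 members, against 5.66% of all genes tested. The log2 fold changes ran between -0.85 (SE 0.95) for Xaf1, which encodes an XIAP-associated factor, and 1.93 (SE 2.45) for Oasl1, a 2′-5′-oligoadenylate synthetase-like protein with under 5 CPM on average. The share of members whose highest library was one of IPMK cKO was 32 of 41 (78%), against 59.9% of all genes tested. Members were chosen with earlier results of these data known and were not drawn at random, so these shares describe the list and carry no test.

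**Figure D2:**
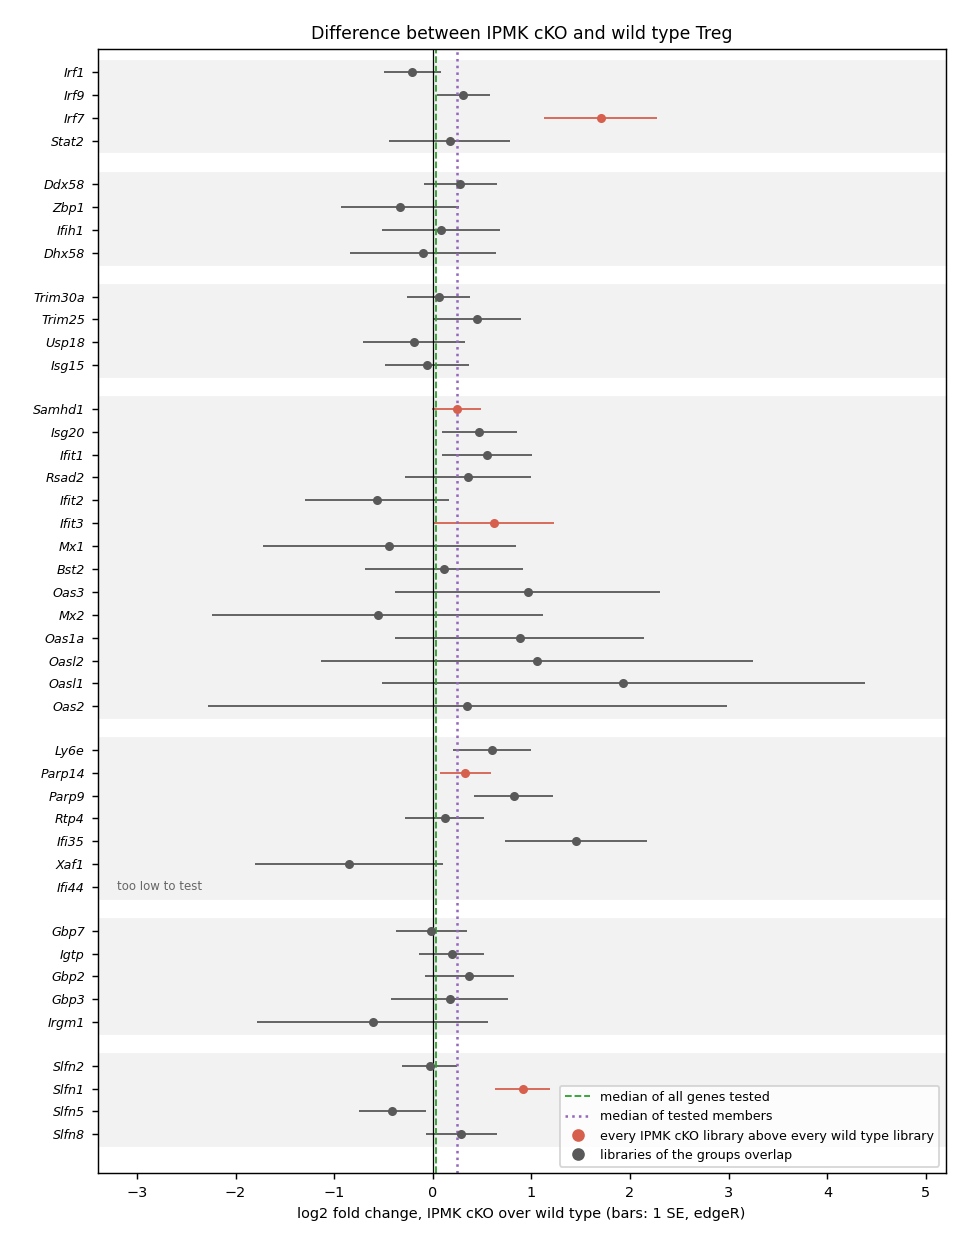
Log2 fold changes of the 41 tested members, IPMK cKO over wild type, with bars of 1 SE from the edgeR model, genes arranged by class and level; the dashed line is the median of all genes tested (0.03) and the dotted line that of the members (0.24). The 5 members whose libraries do not overlap between the groups are in red, and Oas2, Oasl1 and Oasl2 have the widest bars.

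**Figure D3:**
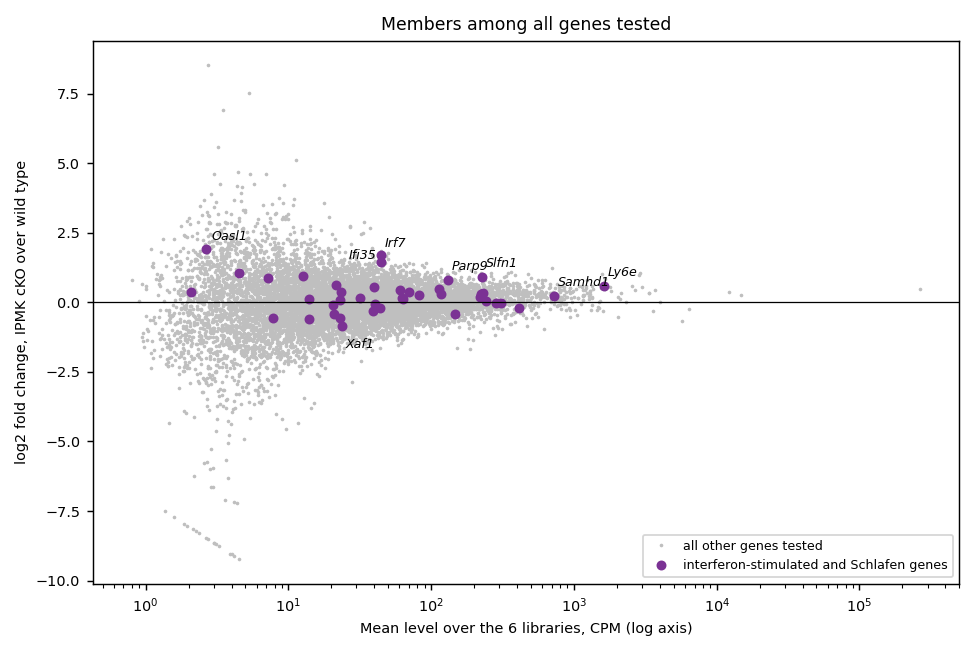
Log2 fold change, IPMK cKO over wild type, against mean level in CPM on a log axis, for the members over all 10475 genes tested. The members lie within the cloud of all genes, with a median of 0.24 against 0.03.

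Among the regulators, which transcribe the response, Irf7 had the largest estimate. Irf7, a factor that amplifies type I interferon production, had 132, 38.7 and 32.6 CPM in the IPMK cKO libraries, against 21.3, 20.9 and 20.2 CPM in the wild type libraries. Every IPMK cKO library lay above the narrow wild type range, and replicate 1 was far above the other IPMK cKO libraries. The log2 fold change was 1.70 (SE 0.57), with an unadjusted edgeR p of 0.0129 and a DESeq2 adjusted p of 0.715. Without IPMK cKO replicate 1 it was 0.77 (SE 0.47).

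The other regulators showed no separation of the groups. Irf9, a DNA-binding partner of STAT2, had 266, 198 and 285 CPM in IPMK cKO, against 213, 204 and 186 CPM in wild type (log2 fold change 0.31, SE 0.27). Stat2 had 20, 53.3 and 28.5 CPM in IPMK cKO, against 17.4, 52.9 and 20.1 CPM in wild type, so that replicate 2 was the highest of each group and the group means, 33.9 ± 17.3 CPM in IPMK cKO and 30.1 ± 19.7 CPM in wild type (SD, n = 3 each), differed by less than either SD. Irf1, a factor induced by interferon gamma, was the most abundant regulator, with 301, 314 and 528 CPM in IPMK cKO and 478, 420.2 and 428 CPM in wild type. Its IPMK cKO libraries spanned a range that enclosed all wild type libraries, and its log2 fold change was -0.21 (SE 0.29).

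The sensors of foreign RNA and DNA did not move in one direction: 2 of 4 lay above 0 and 2 below, with a median log2 fold change of -0.0093. Ddx58, which encodes RIG-I, had 89.8, 66 and 115 CPM in IPMK cKO, against 60.8, 102 and 61.2 CPM in wild type (log2 fold change 0.28, SE 0.37). Ifih1 (MDA5) and Dhx58 (LGP2), the other RIG-I-like receptors, had log2 fold changes of 0.084 (SE 0.60) and -0.10 (SE 0.74). Zbp1, a sensor of Z-form nucleic acid, had 62.9, 30.6 and 11.3 CPM in IPMK cKO, against 41.1, 34.2 and 56.2 CPM in wild type. The IPMK cKO libraries enclosed those of wild type in Zbp1, and all 4 sensors overlapped between the groups.

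In the ISG15 and ubiquitin system the median log2 fold change was 0.0009, with 2 of 4 genes above 0. Isg15, whose promoter stretch with 3 overlapping matches is shown above, had 31.8, 34.6 and 53 CPM in IPMK cKO, against 39.7, 36.2 and 48.5 CPM in wild type. The groups overlapped and the log2 fold change was -0.059 (SE 0.43). Usp18, the protease that removes ISG15 and restrains the type I receptor, was also close to level (log2 fold change -0.19, SE 0.52). Trim25, a ubiquitin ligase that acts on RIG-I, had 89.4, 82.3 and 36.5 CPM in IPMK cKO, against 49.2, 36.9 and 66.2 CPM in wild type (log2 fold change 0.45, SE 0.44). Trim30a, a member of the TRIM family, had 171, 319.7 and 248 CPM in IPMK cKO, against 192, 297 and 220.1 CPM in wild type. In both TRIM genes the groups overlapped, and in Trim30a replicate 2 was the highest and replicate 1 the lowest of each group.

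The antiviral effectors had 11 of 14 estimates above 0, and their median on the log2 scale was 0.41. Samhd1, a dNTP hydrolase that limits reverse transcription, was the most abundant, with 795, 785 and 788 CPM in IPMK cKO, against 636, 776 and 598 CPM in wild type. The IPMK cKO libraries lay close together and above all of wild type, by little in wild type replicate 2. The means were 789.5 ± 5.37 CPM in IPMK cKO and 670.0 ± 94.1 CPM in wild type (SD, n = 3 each), with a log2 fold change of 0.24 (SE 0.25).

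The IFIT proteins bind viral RNA at its 5′ end or act on translation, and the 3 genes lie together on chromosome 19. Ifit3 had 24.2, 25.2 and 28.2 CPM in IPMK cKO, against 10.2, 17.9 and 22.4 CPM in wild type (log2 fold change 0.62, SE 0.61), without overlap. Ifit1 had 44.7, 63.8 and 33.5 CPM in IPMK cKO, against 29.6, 25.7 and 41.7 CPM in wild type (log2 fold change 0.55, SE 0.46). Ifit2 had 3.8, 29.4 and 22.6 CPM in IPMK cKO, against 29.6, 29.1 and 24 CPM in wild type (log2 fold change -0.57, SE 0.73). The neighbours thus differed in the sign of the estimate, and for Ifit1 and Ifit2 the groups overlapped, Ifit2 being far lower in IPMK cKO replicate 1 than in any other library.

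Isg20, an exonuclease of single-stranded RNA, had 193, 98.2 and 104 CPM in IPMK cKO, against 78.2, 76.3 and 131 CPM in wild type (log2 fold change 0.47, SE 0.38). Its highest library was IPMK cKO replicate 1, without which the log2 fold change was 0.08 (SE 0.32), and the groups overlapped. Rsad2, which encodes viperin, had 30, 34.6 and 13.8 CPM in IPMK cKO and 29.1, 11.5 and 20.6 CPM in wild type. Bst2, or tetherin, which holds budding virions at the membrane, had 18.3, 8.23 and 16.9 CPM in IPMK cKO, against 13.8, 7.38 and 18.9 CPM in wild type, where the groups overlapped and the SE of 0.80 exceeded the log2 fold change of 0.11.

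The genes of the oligoadenylate synthetase family were rare. Oas3 had 14.4, 11 and 24.7 CPM in IPMK cKO, against 0, 13.1 and 12.6 CPM in wild type, and Oas1a had 12, 12.9 and 3.15 CPM in IPMK cKO, against 5.78, 6.97 and 2.5 CPM in wild type. Oas2, Oasl1 and Oasl2 averaged under 5 CPM and each had no count in at least 1 library of both groups. The log2 fold changes of the 5 genes were all above 0, at 0.35 to 1.93, with SE of 1.26 to 2.63, so each estimate was smaller than its SE. Mx1 and Mx2 encode dynamin-like GTPases that are defective in most inbred strains, C57BL/6 among them. Mx1 had 38.6, 14.6 and 0 CPM in IPMK cKO, against 23.6, 33.5 and 14.9 CPM in wild type, and Mx2 had 0, 9.15 and 9.64 CPM in IPMK cKO, against 18.3, 0.82 and 8.63 CPM in wild type. Both overlapped between the groups.

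Of the other induced genes, 5 of the 6 tested had estimates above 0, and the median on the log2 scale was 0.46. Parp9 and Parp14 are ADP-ribosyltransferase family members on chromosome 16. Parp9 had 249, 137 and 113 CPM in IPMK cKO, against 98.8, 126 and 58.5 CPM in wild type (log2 fold change 0.82, SE 0.40). Parp14 had 266, 259 and 245 CPM in IPMK cKO, against 192, 237 and 185 CPM in wild type (log2 fold change 0.33, SE 0.26). Every IPMK cKO library lay above every wild type library in Parp14, and in Parp9 only the highest wild type library, replicate 2, reached above the lowest of IPMK cKO. Without IPMK cKO replicate 1 the log2 fold change of Parp9 was 0.40 (SE 0.34).

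Ifi35 and Ly6e were high in IPMK cKO replicate 1 alone. Ifi35 had 122, 38.4 and 34.3 CPM in IPMK cKO, against 5.53, 39.2 and 26.4 CPM in wild type, where replicate 1 was the highest of IPMK cKO and the lowest of wild type. Its log2 fold change was 1.45 (SE 0.72), 0.61 (SE 0.68) once IPMK cKO replicate 1 was left out, and 0.15 with wild type replicate 1 left out as well. Ly6e, a GPI-anchored surface protein that interferes with the entry of some viruses, was the most abundant member and the 25th gene by level of all tested. It had 3467, 1036 and 1398 CPM in IPMK cKO, against 1292, 1214 and 1387 CPM in wild type. The log2 fold change was 0.60 (SE 0.40), and -0.10 (SE 0.20) without IPMK cKO replicate 1. Ly6e also set the sum over the members: all 42 together came to 8127, 5561 and 5765 CPM in IPMK cKO, against 5119.8, 5437 and 5196 CPM in wild type. A sum without Ly6e, chosen after its values were seen, came to 4660.5, 4526 and 4367 CPM in IPMK cKO, against 3828, 4223 and 3809 CPM in wild type. As a share of the counts outside Rn45s, however, that sum was 0.537%, 0.61% and 0.604% in IPMK cKO and 0.54%, 0.584% and 0.533% in wild type, which overlap.

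Rtp4, a chaperone of membrane receptors, had 95.8, 57.9 and 46.2 CPM in IPMK cKO, against 63.2, 46.9 and 73.2 CPM in wild type, with overlap. Xaf1 had 1.27, 26.8 and 22.9 CPM in IPMK cKO, against 20.3, 13.3 and 58.4 CPM in wild type, and as with Ifit2 the lowest library was IPMK cKO replicate 1. Ifi44 was the member with too few counts to test, at 7, 0 and 0 counts in IPMK cKO and 112, 11 and 5 counts in wild type. Most of its counts came from wild type replicate 1.

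**Figure D4:**
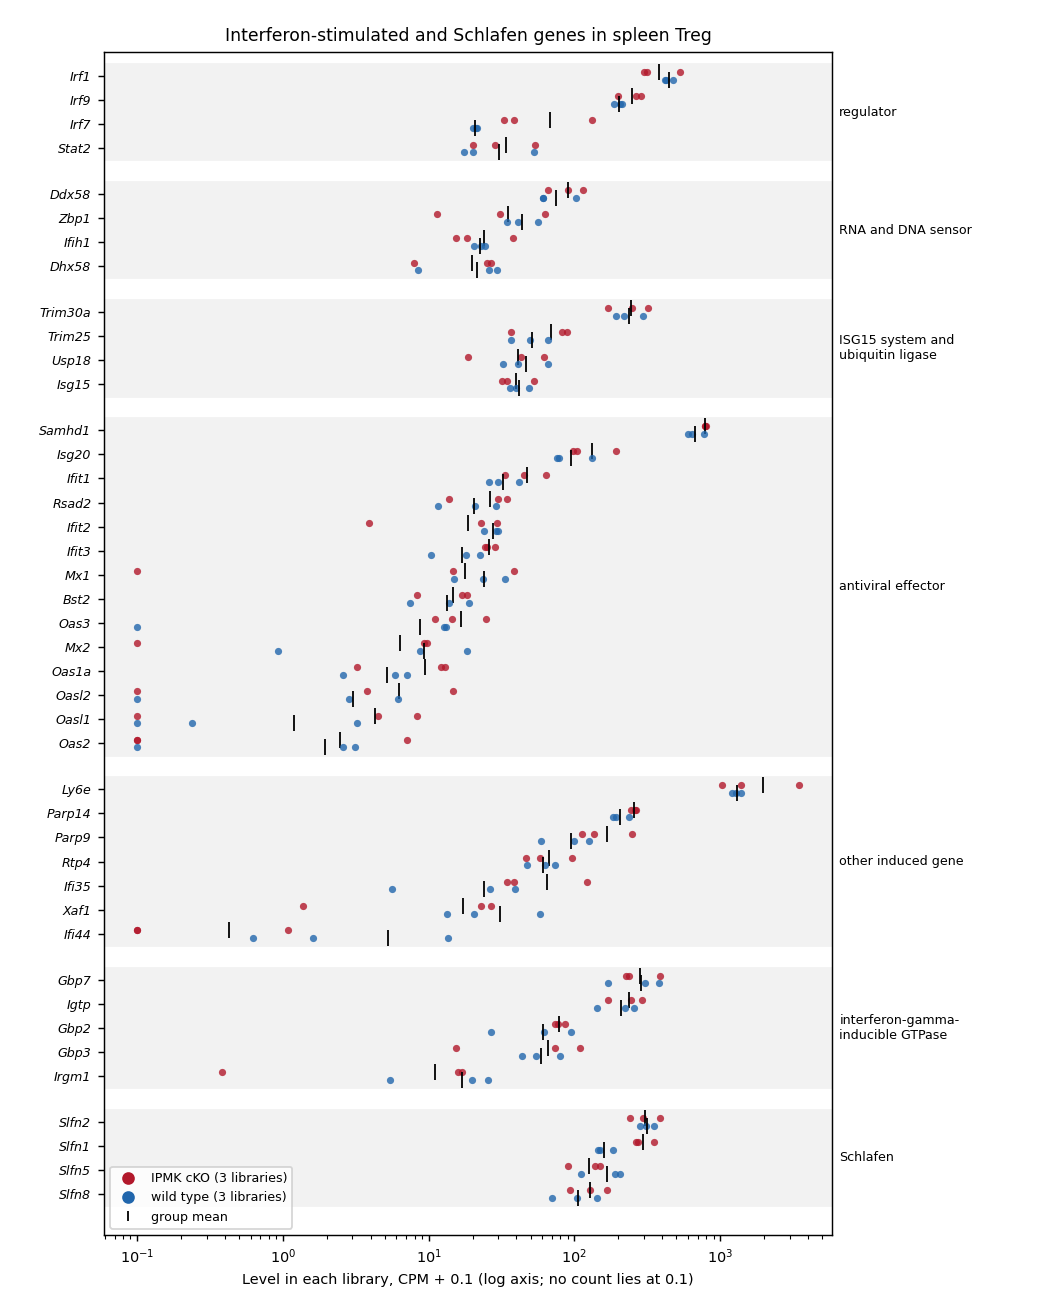
Level of each of the 42 members in each library, as CPM plus 0.1 on a log axis, with IPMK cKO (red) drawn above wild type (blue), 3 points each, vertical ticks for the group means and genes arranged by class and level. The points of the 2 groups overlap in most genes and do not overlap in Slfn1, Irf7, Ifit3, Parp14 and, by little, Samhd1. The rare oligoadenylate synthetases have points at no count.

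The interferon-gamma-inducible GTPases act against intracellular pathogens at the vacuole membrane, and all 5 had an ISRE match in the promoter window. Their median log2 fold change was 0.17, with 3 above 0 and 2 below. Gbp7 had 235, 388 and 224 CPM in IPMK cKO, against 169, 383 and 303 CPM in wild type (log2 fold change -0.014, SE 0.36). Igtp, which encodes the immunity-related GTPase Irgm3, had 244, 169 and 293 CPM in IPMK cKO, against 256, 143 and 222 CPM in wild type (log2 fold change 0.19, SE 0.33). In both genes the groups overlapped and replicate 2 was the extreme library of each group, the highest for Gbp7 and the lowest for Igtp. Gbp2 had 73.5, 76.6 and 85.9 CPM in IPMK cKO, against 61.5, 94.3 and 26.6 CPM in wild type. Gbp3 had 109, 73.8 and 15.2 CPM in IPMK cKO, against 79.2, 54 and 43.6 CPM in wild type. Irgm1, a regulator of the other immunity-related GTPases, had 0.281, 15.8 and 16.8 CPM in IPMK cKO, against 19.6, 25.3 and 5.3 CPM in wild type. These 3 overlapped between the groups as well.

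The Schlafens lie in a cluster on chromosome 11, in the order Slfn5, Slfn8, Slfn2 and Slfn1 with other Schlafens between them, from 82951349 to 83122670 on mm10, and their estimates differed in sign. Slfn1, which restrains T cell growth when overexpressed, had 354, 263 and 275 CPM in IPMK cKO, against 144, 183 and 149 CPM in wild type. The lowest IPMK cKO library lay well above the highest wild type library. The means were 297 ± 49.7 CPM in IPMK cKO and 159 ± 21.2 CPM in wild type (SD, n = 3 each), a ratio of 1.87. The log2 fold change was 0.91 (SE 0.28) with an unadjusted edgeR p of 0.00745, the smallest of the members, and the DESeq2 adjusted p was 0.279. Over 16 alternative settings the log2 fold change stayed between 0.70 and 1.0, and without IPMK cKO replicate 1 it was 0.75 (SE 0.23).

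The other Schlafens of the cluster did not share the separation of Slfn1. Slfn2, in which the elektra mutation costs T cells their quiescence, had 242, 384 and 294 CPM in IPMK cKO, against 309, 351 and 282 CPM in wild type (log2 fold change -0.034, SE 0.28). Slfn5 had 90.2, 139 and 150.5 CPM in IPMK cKO, against 190.1, 110.1 and 204 CPM in wild type (log2 fold change -0.41, SE 0.34). Slfn8 had 127, 166 and 92.8 CPM in IPMK cKO, against 104, 142 and 69.9 CPM in wild type (log2 fold change 0.29, SE 0.36), and its log2 fold change was 0.032 (SE 0.39) without IPMK cKO replicate 2. All 3 overlapped between the groups, and no test of Slfn1 against them was made. Sequence similarity among Schlafens could split reads between copies, and counting was not stated to use strand, so single Schlafen values carry that uncertainty.

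The promoter windows of Slfn1 and Irf7, the members with the smallest p-values, are shown because neither held the ISRE core or TTCNNNGAA on either strand. They lie at chr11:83116570-83116869 (plus strand) and chr7:141266375-141266674 (minus strand) on GRCm38.p6, each 300 bases 5′ to 3′ on the strand of the gene.
Slfn1: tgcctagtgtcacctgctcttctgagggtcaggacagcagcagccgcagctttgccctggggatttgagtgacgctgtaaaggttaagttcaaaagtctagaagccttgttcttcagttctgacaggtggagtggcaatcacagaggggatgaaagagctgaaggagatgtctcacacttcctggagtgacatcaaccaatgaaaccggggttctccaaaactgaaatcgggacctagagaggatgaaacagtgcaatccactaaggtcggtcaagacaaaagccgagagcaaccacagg
Irf7: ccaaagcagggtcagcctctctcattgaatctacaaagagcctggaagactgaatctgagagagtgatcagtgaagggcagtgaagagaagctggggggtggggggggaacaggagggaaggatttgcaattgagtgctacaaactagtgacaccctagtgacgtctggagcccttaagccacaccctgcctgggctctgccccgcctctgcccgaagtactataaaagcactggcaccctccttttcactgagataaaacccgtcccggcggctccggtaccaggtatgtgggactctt
That these letters are absent says nothing about whether a factor acts on either gene. Over the members, the 18 tested genes with an ISRE match had a median of 0.18 on the log2 scale, with 14 above 0. The 13 tested genes with a window and no match had a median of 0.45, with 9 above 0. For the longer ISRE the medians were 0.28 in 11 genes with a match and 0.27 in 20 without. For the core at 150 bases before to 50 after the start they were 0.23 in 16 genes and 0.31 in 15. The contrast thus depended on the form searched and was not tested.

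**Figure D5:**
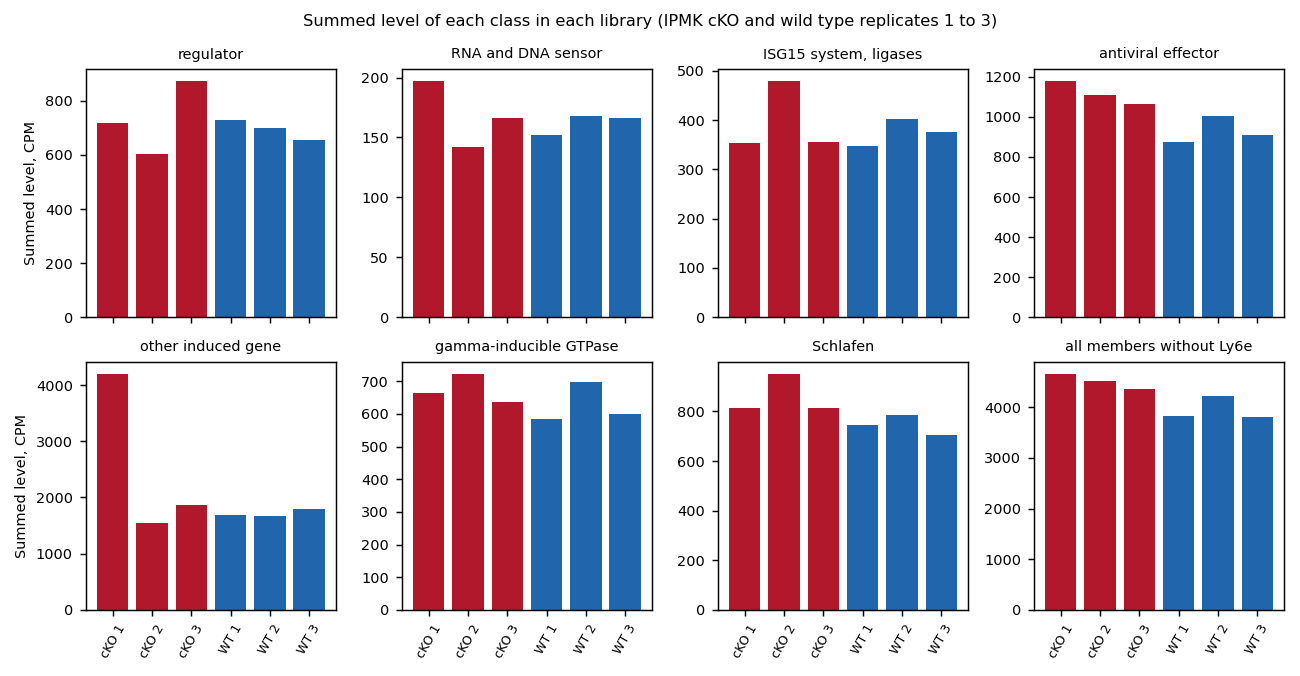
Summed CPM of each class in each library as bars, IPMK cKO replicates 1 to 3 (red) left of wild type replicates 1 to 3 (blue), with a last panel for all members without Ly6e. The antiviral effectors lie at 1063 to 1178 CPM in IPMK cKO and 874 to 1005 CPM in wild type, and the other induced genes reach 4202 CPM in IPMK cKO replicate 1, of which Ly6e gives 3467 CPM.

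Summed by class, the antiviral effectors and the Schlafens were the classes in which every IPMK cKO library lay above every wild type library. The 14 antiviral effectors summed to 1178, 1107 and 1063 CPM in IPMK cKO, against 874, 1005 and 907 CPM in wild type. As a share of the counts outside Rn45s they made up 0.136%, 0.149% and 0.147% in IPMK cKO and 0.123%, 0.139% and 0.127% in wild type, so on that scale the groups overlapped. The 4 Schlafens summed to 814, 952 and 812 CPM in IPMK cKO, against 747, 787 and 705 CPM in wild type, and their shares of 0.0937%, 0.128% and 0.112% in IPMK cKO and 0.105%, 0.109% and 0.0987% in wild type overlapped too. The separation of these sums was thus present on the TMM scale and not in the shares, and each turned on 1 gene, left out after its values were seen. Without Samhd1 the antiviral effectors summed to 383, 322 and 275 CPM in IPMK cKO, against 238, 228 and 309 CPM in wild type, and the groups overlapped. Without Slfn1 the Schlafens summed to 459.6, 689.7 and 537 CPM in IPMK cKO, against 603, 604 and 556 CPM in wild type, again with overlap.

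The genes above and beside the members in the pathway gave no call either. Of 10 interferon genes, 8 had no count in any library, Ifng had 0, 24 and 0 counts in IPMK cKO and 0, 0 and 58 counts in wild type, and Ifnk had counts in 1 wild type library. Of 26 tested receptor and signalling genes, 0 were called by edgeR, 10 lay above 0 and 16 below, and the median log2 fold change was -0.17. Jak1, the kinase shared by the type I and type II receptors, had 1715, 979 and 1274 CPM in IPMK cKO, against 976, 1037 and 916 CPM in wild type (log2 fold change 0.44, SE 0.28). Stat3, a STAT of several cytokine receptors, had 263, 501 and 509 CPM in IPMK cKO, against 462, 434 and 533 CPM in wild type (log2 fold change -0.17, SE 0.31). Both overlapped between the groups. Ifngr2, a chain of the interferon gamma receptor, had 15.1, 35.3 and 25.3 CPM in IPMK cKO, against 17.2, 13 and 11.3 CPM in wild type (log2 fold change 0.86, SE 0.65), with replicate 1 the lowest of IPMK cKO and the highest of wild type. Irf2, a factor that competes with IRF1 for the ISRE, had 359.5, 342 and 349 CPM in IPMK cKO, against 245, 313 and 230.0 CPM in wild type (log2 fold change 0.42, SE 0.26), without overlap.

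A further 58 tested interferon-stimulated genes outside the members had 36 estimates above 0 and 22 below, a median of 0.18 on the log2 scale and 0 calls by edgeR. Sp100, a component of nuclear bodies, was the gene among them with an unadjusted edgeR p under 0.05 (0.0434). It had 88.4, 89.4 and 47.2 CPM in IPMK cKO, against 13.1, 56.3 and 25.6 CPM in wild type, a log2 fold change of 1.24 (SE 0.54), and the groups overlapped. Nlrc5, the activator of MHC class I genes, had 278, 195 and 91.2 CPM in IPMK cKO, against 87.7, 127 and 105 CPM in wild type (log2 fold change 0.82, SE 0.40). Ifitm3, which blocks viral fusion, and Oas1c each had IPMK cKO replicate 1 far above the other libraries, at 48 CPM for Ifitm3 and 102 CPM for Oas1c. Shisa5 was the most abundant, with 7222, 2713 and 2853 CPM in IPMK cKO, against 2866, 3408 and 3037 CPM in wild type. Its IPMK cKO replicates 2 and 3 lay below every wild type library. Next in level were the p200 family genes Mndal and Ifi203, with mean levels of 932 ± 219 and 829 ± 162 CPM in IPMK cKO, against 823 ± 80.4 and 769 ± 127 CPM in wild type (SD, n = 3 each), and both overlapped. The 3 other tested Schlafens, Slfn3, Slfn9 and Slfn10-ps, all had estimates below 0, with a median log2 fold change of -0.46. Over all 86 tested pathway genes outside the members, 46 lay above 0 and 40 below, the median was 0.093, and the groups did not overlap in 3 higher genes (3.49%) and 4 lower genes (4.65%), against 4.74% and 5.66% of all genes tested.

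The common biological coefficient of variation of the fit was 0.809. For the 19 members above 50 CPM the median coefficient of variation was 28.6% in IPMK cKO and 28.2% in wild type, and for the 19 members at 5 to 50 CPM it was 52.5% in IPMK cKO and 43.2% in wild type. Over all genes tested it was 33.7% in IPMK cKO and 19.2% in wild type above 50 CPM, and 62.5% in IPMK cKO and 41.7% in wild type at 5 to 50 CPM. Markers of plasmacytoid dendritic cells, which make and answer to type I interferon, summed to 156 to 244 CPM in IPMK cKO and 139 to 202 CPM in wild type. That sum came mostly from Ccr9 and Pacsin1, and Siglech, the marker most specific to those cells, had 1, 1 and 0 counts in IPMK cKO, against 5, 0 and 1 counts in wild type. Of the 2 markers of this list that were tested, 1 was higher in every IPMK cKO library, with an unadjusted edgeR p under 0.05. Its log2 fold change was 1.25, and that of the other was -0.024. Markers of monocytes, macrophages and dendritic cells summed to 14.4 to 91.4 CPM in IPMK cKO and 65.7 to 71.9 CPM in wild type, and 3 of the 9 had no count in any library. The list of NK and CD8 T cell markers summed to 24.6, 20.4 and 21 CPM in IPMK cKO. The wild type sums were smaller, at 15.8, 14.9 and 16.3 CPM. Most of the IPMK cKO sum was Eomes, a transcription factor also found in CD4 T cells. Eomes had 22.5, 11.8 and 15 CPM in IPMK cKO, against 0, 1.91 and 3.85 CPM in wild type. It alone of the 9 markers had the higher mean in IPMK cKO. Cd8b1, the other tested marker, had 2.11, 8.62 and 5.89 CPM in IPMK cKO, against 7.82, 12.2 and 9.88 CPM in wild type. Its log2 fold change was -0.84 (SE 1.17), and the groups overlapped. Klrb1c, Gzma and Prf1 had all their counts in wild type, apart from 1 count of Klrb1c. The remaining 4 markers, Cd8a and Ncr1 among them, had no count in any library. Neutrophil markers summed to 3.27 to 19.9 CPM in IPMK cKO and 0 to 12.4 CPM in wild type, and erythroid markers to 0 to 19.6 CPM in IPMK cKO and 0.12 to 60.7 CPM in wild type. The part of other cell types in the members' levels was not tested.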

How the data were processed

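Total RNA was extracted with Trizol and 3′ tag libraries were prepared by the Lexogen QuantSeq method, per the labels. The values deposited by the authors are raw counts, 1 whole number per gene symbol and library. Bowtie2, edgeR, mm10 and hg19 appear per the submitters' processing notes, which state no role or version; the sources used here do not give the counting program or strand setting. CPM were not divided by length, since a tag is read at the transcript's end.

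All 6 libraries entered 1 fit (edgeR 4.0.16, R 4.3.3: TMM, filterByExpr with a minimum of 10 counts, quasi-likelihood test, Benjamini-Hochberg adjustment over 10475 genes, threshold 0.05). SE is the estimate over the square root of F. Alternatives were DESeq2 1.42.0, limma-voom (limma 3.58.1), other scalings and filters, a replicate block and leaving out libraries.

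The members and lists were chosen with earlier results of these data known. Every library is given for the 10 members of smallest p, the 10 most abundant, and all regulators and Schlafens; others are given where a sentence on their class needs them. Of the pathway lists, the 4 genes of smallest p and the 3 most abundant could be named; 1 further gene that the rule names is not reported here. Nothing in the labels ties replicate numbers to animals, so numbers were not taken as pairs. Same-numbered libraries had correlations of within-group deviations of 0.0261, 0.0754 and 0.0359. Coordinates of genes are from GENCODE M21 on mm10.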

Additional observations from a re-analysis of the deposited data

How the results depend on the processing

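No member was called under any setting run, a threshold of 0.1 included. Of 288 alternative values for the 18 members named by rule, 266 kept their direction, and 11 of the 18 kept it throughout. Without TMM the median of the tested members was 0.054, while that of all genes was -0.17, Trim30a was at -0.10, Igtp at -0.015, and the groups did not overlap in 3 members higher (Irf7, Parp9 and Slfn1; 2.69% of all genes) and 1 lower (Ifit2; 7.62%). Gbp7 was at 0.018 by voom, and Slfn2 at 0.049 by voom with sample weights, which called 1 lower gene. DESeq2 called 1 higher and 3 lower genes, none of them members. Without both libraries numbered 1, Ly6e was at -0.10, Isg20 at -0.038 and Slfn2 at 0.10, with 1 lower gene called, 7 members wholly higher (14.8% of all genes) and 2 wholly lower (16.9%). The causes were not tested.

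With single libraries left out, 0 to 1 genes were called lower (1 without IPMK cKO replicate 1), the groups did not overlap in 5 to 10 members higher and 0 to 2 lower (7.3% to 11.2% and 8.8% to 13.7% of all genes), and the members' median was 0.15 to 0.28. Log2 fold changes ran between -0.10 and 0.87 for Ly6e, -0.25 and 0.11 for Slfn2, -0.34 and 0.25 for Gbp7, -0.20 and 0.26 for Trim30a, -0.04 and 0.37 for Igtp and -0.34 and 0.85 for Stat2. They kept their sign but moved between 0.08 and 0.77 for Isg20, 0.032 and 0.56 for Slfn8, -0.65 and -0.22 for Slfn5, -0.52 and -0.077 for Irf1, 0.24 and 0.77 for Ifit1, 0.20 and 0.43 for Irf9, 0.16 and 0.34 for Samhd1, 0.26 and 0.43 for Parp14, 0.77 and 2.03 for Irf7, 0.40 and 1.1 for Parp9, 0.61 and 1.99 for Ifi35 and 0.75 and 1.0 for Slfn1. With the replicate block the members' median was 0.24, 0 genes were called and Gbp7 was at 0.020. The within-group deviations of every library correlated best, though weakly, with those of its own number in the other group. That is a hint from the data and not the design. The stricter ISRE form was found in 11 members.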

Other observations

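Besides Irf2, 6 pathway genes outside the members did not overlap between the groups, and the shares, 3.49% of the 86 tested higher and 4.65% lower with Irf2 counted, were below those of all genes tested (4.74% and 5.66%). All but Irf2bp1 were named after their values were seen. Cxcl10, a chemokine that draws CXCR3-bearing cells, had 0, 15 and 15 counts in IPMK cKO, against 50, 53 and 135 counts in wild type. Ube2l6, the conjugating enzyme of ISG15, had 2.67, 3.66 and 3.55 CPM in IPMK cKO, against 6.26, 9.16 and 14.7 CPM in wild type, while Isg15 itself overlapped. Helz2, a nuclear helicase and coactivator, had 4.22, 52.8 and 49.9 CPM in IPMK cKO, against 67.6, 88.7 and 78 CPM in wild type. Irf2bp1, a partner of IRF2, had 22.5, 24.2 and 29.5 CPM in IPMK cKO, against 48.5, 32.5 and 41.2 CPM in wild type. These 4 were lower in every IPMK cKO library. Parp11 had 57.7, 41.7 and 74.2 CPM in IPMK cKO, against 14.9, 38.8 and 39.9 CPM in wild type, and Ifi47, an immunity-related GTPase, had 273, 303 and 286 CPM in IPMK cKO, against 255, 239 and 266 CPM in wild type. Both were higher in every IPMK cKO library. The edgeR adjusted p was 0.9999 for each of the 6.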
